A study of Mus musculus with 3 samples.

Results

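The NF-kB subunits, inhibitors and feedback genes described here are 10 genes: the subunits Rela, Relb, Nfkb1 and Nfkb2, the inhibitor Nfkbia, the feedback inhibitor Tnfaip3, the nuclear inhibitor-like cofactors Nfkbiz and Bcl3, and the induced genes Tnfaip2 and Icam1. They were matched by gene ID, and all 10 were listed in every library, among 16621 genes listed in at least 1 library. Poly(A) RNA was sequenced in 2 DF508 libraries, whose cells carry the ΔF508 mutation in Cftr, and in 1 wild-type (WT) library. Cftr is an anion channel, and ΔF508 is the common deletion of a phenylalanine in cystic fibrosis. The cells of all 3 libraries were tail tendon derived stem cells, from C57BL/6 mice aged 10 weeks, untreated and collected at confluence at passage 4. These are progenitor cells grown out of tendon, so levels are those of a culture in serum-containing medium. Whether the DF508 pair represents different animals or different dishes is not stated, so each p-value covers no more than the spread of these samples, which may be technical.

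NF-kB is a family of dimeric transcription factors. In resting cells the dimers are held in the cytoplasm by inhibitors of kB such as the product of Nfkbia, and cytokine or Toll-like receptors activate a kinase that marks the inhibitor for destruction, so that the dimers enter the nucleus. Several of the genes they induce, Nfkbia and Tnfaip3 among them, switch the pathway off again, which makes their transcripts common readouts of it. In connective tissue fibroblasts the pathway is known for driving chemokine and matrix protease genes.

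The libraries were of similar depth, with 5241826 and 5246886 estimated counts in DF508 replicates 1 and 2 and 5298326 in WT. Divided by its degrees of freedom, the chi-square of counts over genes came to 6.83 and 7.98 for DF508 replicates 1 and 2 set against WT, and to 3.57 within the DF508 pair. The DF508 libraries were counted as 2 samples because the labels list them so, and a value above counting noise does not show that they came from different cultures. All 11 tendon and fibroblast markers were detected in every library, with Col1a1 and Thbs4 the most abundant. Scx was scarce, with 11 and 13 counts in DF508 replicates 1 and 2 and 16 counts in WT. Dcn rose 1.43-fold in DF508 (adjusted p = 0.0417 in edgeR's quasi-likelihood test), and the other 10 did not pass. Of the 9 endothelial markers, Pecam1, Cdh5, Tie1, Emcn and Cldn5 were at 0 throughout. Kdr and Esam had at most 1 count a library. Tek had 69 and 65 counts in DF508 replicates 1 and 2 and 77 counts in WT. Egfl7 had 15 and 12 counts in DF508 and 22 counts in WT. All 15 myeloid markers were highest in DF508 replicate 2. Their summed level was 155 CPM (counts scaled to library size) in DF508 replicate 1 and 725 CPM in replicate 2, against 100 CPM in WT, and none of them was at 0 in all libraries. The 9 smooth muscle and pericyte markers summed to 1522 and 1518 CPM in DF508, against 656 CPM in WT. Acta2, which shares reads, made up most of each sum, at 1063 and 1010 CPM in DF508 and 420 CPM in WT. Of the 8 tested 4 rose in the edgeR fit, where 0.489% of all genes tested did. They were Acta2 (2.47-fold), Cnn1 (3.56-fold), Tagln (2.02-fold) and Lmod1 (2.04-fold). Mcam went the other way without passing, with 3.60 and 0.755 CPM in DF508 and 3.47 CPM in WT. Myh11, Des and Rgs5 were scarce too.

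The promoter letters that NF-kB dimers are known to bind are shown first, for members whose induction by NF-kB is well established, and for Cxcl1, a chemokine target that fell in DF508. Each line gives the 250 bases before the RefSeq transcript start on GRCm38.p6, 5′ to 3′ on the strand of the gene. Capitals mark matches to the decameric kappaB consensus or to GGANNTTCC, on either strand and overlapping where both match. The windows are chr12:55492648-55492897 (minus strand), chr10:19015411-19015660 (minus strand), chr9:21015690-21015939 (plus strand) and chr5:90890995-90891244 (plus strand).
Nfkbia: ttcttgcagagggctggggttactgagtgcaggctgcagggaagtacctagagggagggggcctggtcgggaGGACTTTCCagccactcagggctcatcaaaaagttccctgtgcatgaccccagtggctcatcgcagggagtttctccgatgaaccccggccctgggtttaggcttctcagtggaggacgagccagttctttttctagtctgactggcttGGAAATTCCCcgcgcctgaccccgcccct
Tnfaip3: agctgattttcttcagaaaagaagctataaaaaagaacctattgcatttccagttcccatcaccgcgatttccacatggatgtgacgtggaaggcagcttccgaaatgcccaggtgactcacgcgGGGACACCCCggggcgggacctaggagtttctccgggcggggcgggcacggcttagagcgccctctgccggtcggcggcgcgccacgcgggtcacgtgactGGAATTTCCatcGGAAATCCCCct
Icam1: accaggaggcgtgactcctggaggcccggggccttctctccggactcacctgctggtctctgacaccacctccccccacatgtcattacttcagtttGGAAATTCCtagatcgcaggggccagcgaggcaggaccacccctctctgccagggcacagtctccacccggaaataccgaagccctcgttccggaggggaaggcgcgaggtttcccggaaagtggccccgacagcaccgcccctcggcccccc
Cxcl1: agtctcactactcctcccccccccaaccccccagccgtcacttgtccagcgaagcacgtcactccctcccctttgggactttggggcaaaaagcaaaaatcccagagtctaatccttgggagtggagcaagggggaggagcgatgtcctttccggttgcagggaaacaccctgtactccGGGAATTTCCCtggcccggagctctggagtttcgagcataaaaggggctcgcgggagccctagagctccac

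The promoter table held 7 of the 10 members, Nfkb2 with 3 start sites and Tnfaip3 with 2. Nfkbiz, Nfkb1 and Relb were not in it, so the promoter of Nfkbiz was not read. In windows of 300 bases, 250 before the start and 50 after it, 5 of the 7 (Bcl3, Nfkb2, Nfkbia, Tnfaip2 and Tnfaip3) held the decameric consensus, which 8.46% of all 32851 promoter windows and 9.55% of all genes hold. GGANNTTCC was in 5 of the 7 (Icam1, Nfkb2, Nfkbia, Tnfaip2 and Tnfaip3), and in 4.26% of all windows and 4.86% of all genes. Both were kept out of 9 spellings after the members' windows had been read, so neither count supports anything about the members. In Nfkbia the match nearest to the start spans bases -29 to -20, in Icam1 the match spans -153 to -145, and in Cxcl1 the overlapping matches lie between -71 and -61. Tnfaip3 has a pair of matches close together, at -24 to -16 and -12 to -3. A match is a description of letters, and binding was not measured.

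In the comparison of DF508 with WT, Nfkbiz was the 1 member called in the main fit. It fell 1.85-fold, to nearly the same level in both DF508 libraries, against a single WT library. The call was kept in 7 of 12 other fits and lost with library totals, with no filter on low counts and on FPKM. The other 9 members, with all 4 subunits and Nfkbia among them, did not pass the test. Of all 12888 genes tested, 0.900% fell, 0.489% rose and 1.39% did either (edgeR's quasi-likelihood test, adjusted p under 0.05 after Benjamini-Hochberg), beside 1 of 10 members that fell. The members' median log2 fold change was -0.13, against 0.01 for all genes tested. All 10 members passed the filter on low counts, and all had whole-number estimates in every library, so none of them shared reads with another gene.

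Levels are compared between genes as FPKM, fragments scaled to transcript length and library size, which the authors computed. Nfkbia stood highest in every library and Tnfaip3 lowest. By the mean of the 3 libraries the order was Nfkbia, Rela, Nfkbiz, Tnfaip2, Nfkb2, Icam1, Nfkb1, Relb, Bcl3 and Tnfaip3. Ranges over libraries overlapped between neighbours from Rela to Tnfaip2 and from Nfkb2 to Nfkb1. They did not overlap between Nfkbia and Rela, between Tnfaip2 and Nfkb2, or between Nfkb1, Relb, Bcl3 and Tnfaip3. Some ranges further apart in the order did overlap, those of Nfkbiz with Nfkb2 and Icam1 and that of Tnfaip2 with Icam1 among them. Nfkbiz was the fourth and the sixth of the members in DF508 replicates 1 and 2, and the second in WT.

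**Figure D1:**
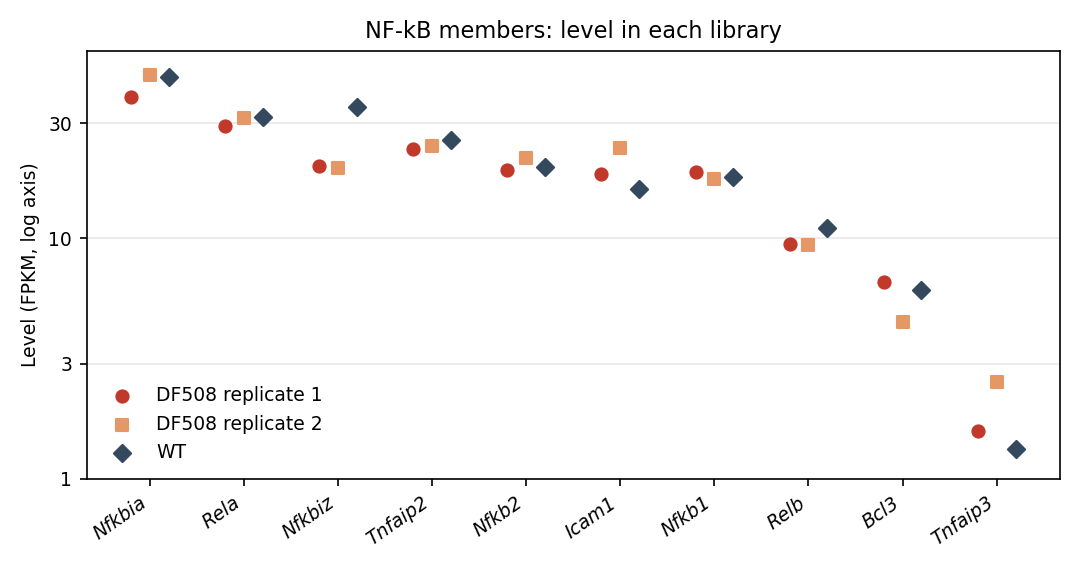
Level of each member in FPKM, on a log axis, in DF508 replicate 1 (circles), DF508 replicate 2 (squares) and WT (diamonds), 1 point per library and no error bars. Nfkbiz is at 20.0 and 19.5 FPKM in the DF508 libraries and at 35.2 FPKM in WT, while the points of most other members lie close together.

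The subunits came close to WT in both mutant libraries. Rela encodes the transactivating subunit of the canonical dimer and was the most abundant of the 4, with 415 and 447 counts in DF508 replicates 1 and 2 and 458 counts in WT, or 29.2 and 31.4 FPKM against 31.9 FPKM. Both DF508 libraries lay slightly below WT, and the log2 fold change of -0.12 ± 0.11 (SE) did not pass the edgeR test (adjusted p = 0.758). Nfkb1, the precursor that is trimmed to the DNA-binding partner of Rela, had 408 and 382 counts in DF508 and 394 counts in WT. The WT value lay between the DF508 values. The ratio of the pooled DF508 libraries to WT, on counts scaled to library totals, was 1.01 for Nfkb1, with an exact 95% interval of 0.896 to 1.15 for counting error alone.

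The subunits of the non-canonical branch gave a like picture. Nfkb2, the precursor processed in that branch, had 312 and 354 counts in DF508 and 336 counts in WT, again with WT in between. Its ratio was 1.00, with an interval of 0.877 to 1.15 for counting error. Relb, its partner, had 110 and 109 counts in DF508 and 129 counts in WT. Both DF508 libraries were below WT, but the counting interval of 0.687 to 1.07 included a ratio of 1, and the log2 fold change of -0.27 ± 0.20 did not pass the edgeR test (adjusted p = 0.668). Counting error alone therefore leaves room for a fall of Relb to about 0.687 of WT.

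The make-up of the subunit pool differed little between libraries. Summed over the 4 subunits, the level was 76.5 and 79.8 FPKM in DF508 replicates 1 and 2 and 80.6 FPKM in WT. Rela contributed 38.2% and 39.4% of that sum in DF508 and 39.6% in WT. Relb contributed 12.4% and 11.8% in DF508 and 13.7% in WT, which made it the smallest of the 4 in every library. Rel, the remaining subunit gene of the family and a member of the pathway lists below, was lower still, with 2.44 and 1.99 FPKM in DF508 and 2.12 FPKM in WT.

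Nfkbia, the inhibitor that holds Rela dimers in the cytoplasm and is induced by them, had 320 and 395 counts in DF508 replicates 1 and 2, against 390 counts in WT. Replicate 1 was lower than the other libraries and replicate 2 was level with WT. Replicate 2 exceeded replicate 1 by 1.23 times, with a counting interval of 1.06 to 1.43, so the DF508 pair spread by more than counting error. The log2 fold change was -0.16 ± 0.14 and did not pass the edgeR test (adjusted p = 0.741). Relative to Rela, Nfkbia stood at 1.32 and 1.52 in DF508 and 1.46 in WT, as a ratio of FPKM.

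Tnfaip3 encodes a ubiquitin-editing enzyme that shuts off signalling upstream of the kinase, and was the scarcest member. It had 37 and 59 counts in DF508 and 31 counts in WT, or 1.58 and 2.52 FPKM against 1.33 FPKM. Both DF508 libraries were above WT, replicate 2 well above replicate 1. The fitted fold was 1.52 (log2 fold change 0.60 ± 0.40, adjusted p = 0.624 in the edgeR test) and did not pass. On counting error alone, replicate 1 was 1.21 times WT with an interval of 0.728 to 2.01 that included 1, and replicate 2 was 1.92 times WT with an interval of 1.22 to 3.07. The pooled ratio was 1.56, with an interval of 1.03 to 2.43. Replicate 2 exceeded replicate 1 by 1.59 times, with a counting interval of 1.04 to 2.47. The DF508 pair thus spread by more than counting error, which the pooled interval leaves out.

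Nfkbiz and Bcl3 encode nuclear relatives of the inhibitors of kB that act as cofactors on DNA-bound dimers rather than holding them in the cytoplasm. The product of Nfkbiz is known as a cofactor for a late set of NF-kB targets, and its transcript is itself induced quickly by interleukin-1 and Toll-like receptor signals. Nfkbiz had 378 and 370 counts in DF508 replicates 1 and 2, against 677 counts in WT, or 20.0 and 19.5 FPKM against 35.2 FPKM. Both DF508 libraries lay far below WT and differed from each other by less than counting error, with a ratio of 0.978 and an interval of 0.845 to 1.13.

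The normalized level of Nfkbiz was 70.7 ± 1.2 CPM in DF508 (SD, n = 2) and 131 CPM in WT (n = 1). The log2 fold change was -0.89 ± 0.11 (SE), with an adjusted p of 0.00937 in edgeR's quasi-likelihood test, the 23rd lowest p of the 12888 genes tested. Taken singly, replicate 1 differed from WT by -0.87 and replicate 2 by -0.90 on the log2 scale. The summed smooth muscle and pericyte markers, mostly Acta2, also differed, at 1522 and 1518 CPM in DF508 against 656 CPM in WT. So did the summed myeloid markers, mostly Lyz2, at 155 and 725 CPM against 100 CPM. The part of these markers in the difference of Nfkbiz was not tested. On counts scaled to library totals the ratio of DF508 to WT was 0.564 and 0.552, with counting intervals of 0.496 to 0.641 and 0.485 to 0.627. The call was lost with library totals in place of TMM factors (log2 fold change -0.84, adjusted p = 0.441), without a filter on low counts (adjusted p = 0.662) and with limma on log2(FPKM + 1) (adjusted p = 0.493), while DESeq2's Wald test (adjusted p = 0.0412) and limma-voom (adjusted p = 0.00643) kept it. Over the 12 other fits its adjusted p ran from 6.9e-09 to 0.662. The WT library has no replicate and is assumed to vary like the DF508 pair, so a WT culture that happened to be high in Nfkbiz cannot be told apart from a genotype difference.

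Bcl3, by contrast in level, was scarce and variable. It had 63 and 43 counts in DF508 and 59 counts in WT, so WT lay between the mutant libraries. The log2 fold change was -0.18 ± 0.31 and did not pass the edgeR test (adjusted p = 0.883). Nfkbiz exceeded Bcl3 by 3.03 and 4.34 times in DF508 and by 5.77 times in WT, as ratios of FPKM within a library.

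Tnfaip2, a gene first described as induced by tumour necrosis factor, had 442 and 455 counts in DF508 and 487 counts in WT. The DF508 pair was tight and both lay below WT, by a log2 fold change of -0.15 ± 0.11 that did not pass the edgeR test (adjusted p = 0.667). Its ratio to WT was 0.930, with a counting interval of 0.832 to 1.04.

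Icam1, the adhesion receptor for leukocyte integrins, moved the other way. It had 245 and 316 counts in DF508 replicates 1 and 2, against 215 counts in WT, or 18.4 and 23.7 FPKM against 16.0 FPKM. Both DF508 libraries were above WT, and replicate 2 was the higher of them by 1.29 times, with a counting interval of 1.09 to 1.53. On counting error alone, the pooled DF508 libraries were 1.32 times WT with an interval of 1.12 to 1.55, replicate 1 was 1.15 times WT with an interval of 0.955 to 1.39, and replicate 2 was 1.48 times WT with an interval of 1.24 to 1.77. The fitted fold of 1.28 (log2 fold change 0.35 ± 0.17) did not pass in edgeR's quasi-likelihood test (unadjusted p = 0.0691, adjusted p = 0.467).

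**Figure D2:**
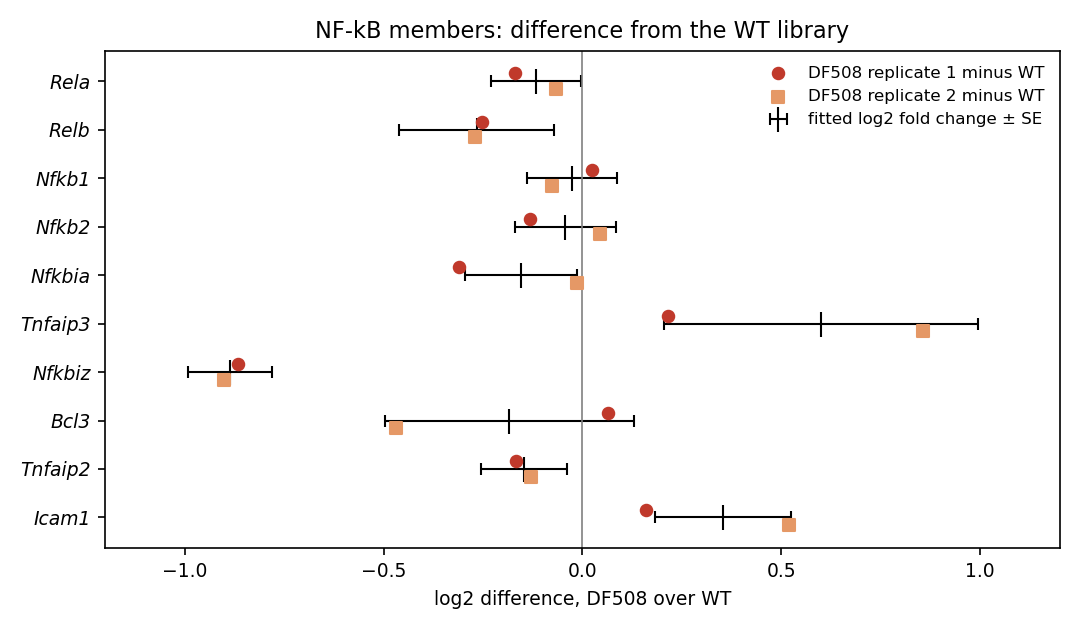
Log2 difference from WT of each member in DF508 replicate 1 (circles) and replicate 2 (squares), on TMM-normalized CPM with a prior count of 2; the vertical tick with its bar is the fitted log2 fold change ± SE. Nfkbiz lies at -0.87 and -0.90, with its points nearly coinciding, whereas the points of Tnfaip3, Bcl3, Icam1 and Nfkbia lie apart.

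Icam1 and Tnfaip3, the members above WT in both DF508 libraries, were highest in DF508 replicate 2, the library with the highest myeloid markers. Nfkb2 was highest in that library too, at 59.1 and 66.8 CPM in DF508 replicates 1 and 2 and 64.8 CPM in WT. So was Nfkbia by FPKM (38.7 and 47.7 in DF508, 46.6 in WT), though not by CPM. The share of all genes that were highest in that library was not counted. In replicates 1 and 2, the 14 tested myeloid markers had median log2 differences of 0.77 and 2.74 against WT. The same differences were 0.16 and 0.52 for Icam1, and 0.22 and 0.86 for Tnfaip3. Lyz2, the most abundant of these markers, had 84.6 and 400 CPM in DF508 and 60.6 CPM in WT. It shares reads with other genes and made up most of the summed myeloid level in each library. The part of myeloid cells in the levels of Icam1 and Tnfaip3 was not tested. In bulk RNA, fewer cells of a type and less RNA per cell cannot be told apart. Of the members, 2 lay above and 5 below WT in both DF508 libraries on TMM-normalized CPM, where 36.2% and 36.1% of all genes tested did so. The 5 include Nfkbia, which in replicate 2 was below WT by a log2 difference of only -0.014. On counts scaled to library totals it was 1.02 times WT there.

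**Figure D3:**
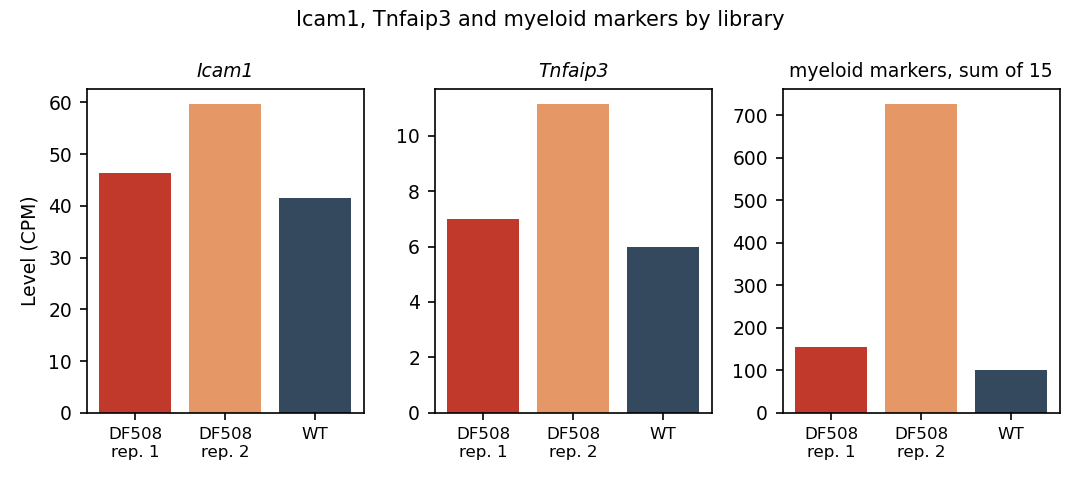
Normalized level in CPM of Icam1, of Tnfaip3 and of 15 myeloid markers summed, in DF508 replicate 1, DF508 replicate 2 and WT, 1 bar per library with no error bar and an axis of its own in each panel. The bar of DF508 replicate 2 is the tallest in each panel, at 59.6 CPM, 11.1 CPM and 725 CPM.

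For 7 members 1 transcript each was listed, so the length that RSEM gave was fixed by the annotation and the same in every library. For Nfkbiz, with 3 transcripts listed, the mean length was 3597 and 3606 bases in DF508 and 3617 bases in WT, so the fall was similar in counts and in FPKM. For Tnfaip3 it was 4437 bases in both DF508 libraries and 4388 bases in WT. For Nfkb2 it was 3110 and 3142 bases in DF508 and 3197 bases in WT. Differences in isoform use were not tested.

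The other genes of the pathway were read from 5 lists of 102 genes in all, of which 93 were tested. Of these, 8 fell, none rose and 85 did not pass in edgeR's quasi-likelihood test. At an unadjusted p under 0.05 in that test there were 19 of the 93, beside 1538 of all 12888 genes tested. Their median log2 fold change was -0.03. The lists were written with earlier results of these data known, Ccl2, Cxcl5, Mmp3, Mmp13 and Zfp36 among them, so the count of 8 against 0.900% of all genes is not independent evidence.

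The signalling chain up to the kinase complex held no call. None of the 24 tested receptors and adaptors passed (median -0.06), nor any of the 12 genes of the kinase list (median 0.14). An unadjusted p under 0.05 was reached by 1 gene of the receptor list and 0 of the kinase list. The tumour necrosis factor receptor Tnfrsf1a, the most abundant of the receptor list, had 107 and 104 FPKM in DF508 and 124 FPKM in WT (log2 fold change -0.27 ± 0.10, edgeR adjusted p = 0.302). The interleukin-1 receptor Il1r1 had 75.3 and 69.2 FPKM in DF508 and 73.0 FPKM in WT, with WT between the mutants. In the kinase list, which also holds partners of the kinases, the adaptor Tab2 had 46.9 and 43.7 FPKM in DF508 and 40.3 FPKM in WT. The kinase Map3k3 had 17.3 and 16.8 FPKM against 14.9 FPKM.

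None of the 8 other Rel and inhibitor of kB genes passed either (median 0.02, 1 at an unadjusted p under 0.05). Commd1, which promotes turnover of Rela, had 20.0 and 20.7 FPKM in DF508 and 19.5 FPKM in WT. The Ras-like inhibitor of signalling Nkiras2 had 9.13 and 11.5 FPKM in DF508 and 8.47 FPKM in WT. Of 16 tested negative regulators 1 fell, Zfp36, whose product destabilises cytokine mRNAs. It had 230 and 259 CPM in DF508 and 469 CPM in WT, 1.92-fold lower (edgeR adjusted p = 0.00831), a fall close in size to that of Nfkbiz.

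Among the target genes 7 of 34 fell, none rose and 27 did not pass, with a list median of -0.06. The collagenase Mmp13 had 27.8 and 25.9 CPM in DF508 and 226 CPM in WT, and was 8.40-fold lower. The neutrophil chemokine Cxcl5 was 2.38-fold, the stromelysin Mmp3 2.23-fold and the monocyte chemokine Ccl2 2.03-fold lower. Cxcl5 and Mmp3 share reads with other genes and are uncertain. The remaining 3, named after their values were seen, were the neutrophil chemokine Cxcl1 (29.5 and 35.3 CPM in DF508, 60.8 CPM in WT), the monocyte chemokine Ccl7 (220 and 166 CPM in DF508, 351 CPM in WT) and the early-response gene Ier3 (43.7 and 47.9 CPM in DF508, 80.6 CPM in WT). In each of these 3 both DF508 libraries lay below WT, by 1.87-fold for Cxcl1, 1.82-fold for Ccl7 and 1.76-fold for Ier3 in the edgeR fit. All 8 pathway calls were lost with library totals in place of TMM factors, without a filter on low counts and on FPKM, as was that of Nfkbiz. The summed smooth muscle and pericyte markers differed between the same libraries, and their part in these falls was not tested.

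**Figure D4:**
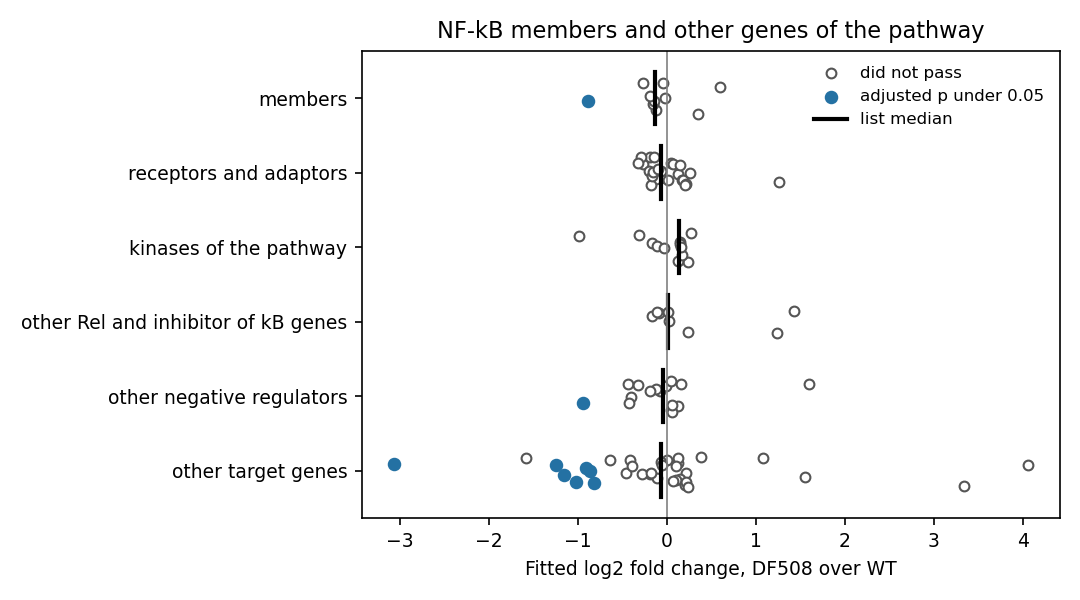
Fitted log2 fold change of DF508 over WT for each tested gene of the members and of the 5 pathway lists, 1 point per gene, filled where edgeR's adjusted p was under 0.05, with the median of each list as a vertical bar; vertical scatter has no meaning. All filled points lie left of 0, 1 of them among the members, 1 among the negative regulators and 7 among the target genes.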

How the data were processed

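Per the labels, poly(A) RNA of 2 DF508 libraries and 1 WT library was read by Illumina sequencing. Per the submitters' processing notes, Bowtie and RSEM were used with mm9; versions, annotation release and strand use were not given in the sources used here. Per the file headers, each table holds the deposited expected count, which is RSEM's estimate of reads per gene before any normalization, the deposited FPKM, which the authors scaled to transcript length and depth, and the deposited length, an other value. Genes with an estimate of 0 are not listed, and missing was set to 0.

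Expected counts were rounded. A gene with an estimate that is not whole within 0.005 in any library was taken to share reads. Gene IDs were named from a RefSeq table of GRCm38.p6 (16579 of 16621 matched), whose coordinates were not used for the counts; promoter windows come from RefSeq on the same build. Genotype was tested with edgeR 4.0.16 (quasi-likelihood, TMM, filterByExpr, genotype as the sole term, 1 residual and 7.7 prior degrees of freedom) in R 4.3.3. The test covered 12888 genes, with Benjamini-Hochberg adjustment at 0.05. The fit was tried on simulated counts in which WT varied like the DF508 pair, so that assumption itself was not tested. The SE is the log2 fold change over the square root of F. CPM is on TMM-normalized library sizes. Ratios on library totals carry exact 95% intervals conditional on the summed count; the labels describe no molecular identifiers, so they cover counting error only. Alternatives used DESeq2 1.42.0 and limma 3.58.1.

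Named genes are all members and, of each pathway list, up to 4 called genes by fold, or the 2 of highest FPKM where none was called. Members and lists were chosen with earlier results of these data known.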

Additional observations from a re-analysis of the deposited data

How the results depend on the processing

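No paired analysis was possible because the WT library carries no replicate number and stands alone. Under the 12 other fits and both single-replicate comparisons, Nfkbiz kept its direction, from -0.80 to -0.90 on the log2 scale (-0.90 without DF508 replicate 1 and -0.87 without replicate 2, folds with no test), and was called in 7 of the 12. No member was called higher in any fit. The number of members called lower was 1, and 0 with library totals only, with no filter on low counts, and with limma-trend on log2(FPKM + 1), on log2(FPKM + 0.1) and on log2(FPKM + 1) with no filter, which gave Nfkbiz adjusted p-values of 0.441, 0.662, 0.493, 0.499 and 0.509. In these 5 fits 0 genes were called higher or lower over all genes, with 1253, 1123, 1145, 1159 and 1615 at an unadjusted p under 0.05, and 0 pathway genes lower, against 63 higher and 116 lower and 8 pathway genes. The prior degrees of freedom were 2.6 with library totals and 1.8 with no filter, against 7.7. DESeq2's Wald test called 22 genes higher and 41 lower, and edgeR's likelihood ratio test 182 and 221, with 1 pathway gene higher, Mmp9. A fit without genes sharing reads, chosen after seeing the data, called 19 and 52, with 4 pathway genes lower, over 9966 genes tested; the cause of losses beyond the genes left out was not tested. The uncalled Nfkb1 and Nfkb2 changed sign, at 0.02 and 0.0019 with library totals only and at 0.02 and 0.03 in each of the limma-trend fits on FPKM. In the comparisons of single replicates Nfkb1 and Bcl3 were at 0.02 and 0.06 without DF508 replicate 2, and Nfkb2 at 0.04 without replicate 1, against -0.03, -0.18 and -0.04 with both. Depth limits Tnfaip3 and Bcl3, with at most 63 counts a library.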

Other observations

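Several scarce genes of the pathway, chosen after their values were seen, stood above WT in both DF508 libraries without passing edgeR's quasi-likelihood test. Tnf, the cytokine that activates the pathway, had 6 and 32 counts in DF508 replicates 1 and 2 and 1 count in WT. The chemokine Ccl5 had 46 and 88 counts in DF508 and 31 counts in WT (adjusted p = 0.345), and the inhibitor-like Nfkbid had 9 and 19 counts in DF508 and 5 counts in WT (adjusted p = 0.597). Tnf, Ccl5 and Nfkbid were highest in replicate 2, as were the myeloid markers, and the part of myeloid cells in them was not tested. Nfkbie, an inhibitor of kB, had 34 and 29 counts in DF508 and 13 counts in WT (adjusted p = 0.356), with replicate 1 the higher of the pair. The gelatinase Mmp9 had 47 and 61 counts in DF508 and 18 counts in WT (log2 fold change 1.55 ± 0.39, adjusted p = 0.127), also highest in replicate 2, and passed in edgeR's likelihood ratio test (adjusted p = 0.0373). Other scarce pathway genes stood below WT in both DF508 libraries without passing. Il6 had 4 and 4 counts in DF508 and 12 counts in WT, and Map3k8 had 14 and 28 counts against 41. Of the 93 pathway genes tested, 32 lay above and 39 below WT in both DF508 libraries. The shares over all genes tested were 36.2% and 36.1%.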
